A study of Mus musculus with 6 samples.

Results

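The forkhead transcription factors were followed across cultured fibroblasts from the mouse heart and tail. The 36 members were given as a list of gene symbols of the Fox family, and array probes were assigned to them through the RefSeq accession that each probe carries. All 36 had a probe, 46 probes in all, among 37066 features (genes, and transcripts without a gene symbol) on the array. RNA came from cells of male C57/Bl6-J mice, aged 8 weeks in the sample labels and 8 to 10 weeks in the protocol text. Chopped hearts and skinned tails were digested with trypsin or collagenase, and the cells were grown for 5 days in medium with 10% serum. No genotype, drug or other treatment differs between the groups, and each culture was pooled from 2 animals. Each tissue label has 3 arrays, so every p-value rests on very few cultures and measures the spread between these pools. The sources used here do not give whether a heart and a tail pool came from the same mice. The labels name no sort, so heart and tail fibroblasts here means the cells that attached and grew. The series title concerns cardiogenic genes in cardiac fibroblasts, and the tail cultures are the comparison.

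Forkhead proteins bind DNA through a winged-helix domain, and some of them can open closed chromatin. Several subfamilies (Foxc, Foxd, Foxf, Foxl1) act in embryonic mesenchyme, where they help to set regional identity, while the Foxa genes belong to endoderm. Foxo proteins are held in the cytoplasm when insulin or growth factor signalling is active, Foxm1 drives genes of mitosis, and Foxp and Foxk proteins are largely repressors present in many cell types. Levels below are log2 signals minus the array's own 75th percentile over non-control probes, so 0 is the level of a fairly bright probe. A level compares 1 probe between arrays, never 1 gene with another.

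Both groups hold an array that stands apart. On the array labelled heart 2, 99.3% of spots were well above background (47.3% to 55.2% on the others), its levels correlated with the other arrays at 0.742 to 0.764 (0.958 to 0.989 among the others), and 2748 spots were marked non-uniform, against at most 7. Both this array and the array labelled tail 1 go against their labels at a pair of tissue genes. At Tcf21, an epicardial and cardiac fibroblast factor, tail 1 stood at 5.44 and heart 2 at -2.38, beside 5.37 and 5.28 on heart 1 and 3 and -5.45 and -5.64 on tail 2 and 3. For Hoxb13, a gene of the tail end of the body, tail 1 had -6.97 and heart 2 had 4.44, beside -7.04 and -5.44 on heart 1 and 3 and 6.60 and 6.76 on tail 2 and 3. Results are therefore given with all 6 arrays by label, with 5 (without heart 2) and with 4 (heart 1 and 3 against tail 2 and 3). Tail 1 lay near the hearts at both genes, and heart 2 lay nearer to the tails. The choice of 4 arrays rests partly on the outcome, so its p-values are too small by an unknown amount. General fibroblast markers (type I and III collagen, Pdgfra, Dcn, Lum and others) were well above background for 10 of 10 genes on every array, with a mean level of 3.90 on heart 2 and of 6.10 to 7.03 on the other arrays. With 4 arrays 5 of these 10 were higher in heart (Lum, Fap, Pdgfra, Dcn and Col3a1) and 1, Thy1, was lower. Over all features 7.75% were called higher and 6.63% lower. By label limma called 0 of the 10 fibroblast markers (0 at an unadjusted p under 0.05). Their part in the forkhead values was not tested.

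Of the 36 forkhead genes 21 could be tested, meaning that a probe had a signal well above background throughout 1 group or both. These were the same 21 genes in the comparisons over 6, 5 and 4 arrays, and 19 of them were well above background on all 6 arrays. Among the tested were Foxc1, Foxc2, Foxd1, Foxd2, Foxd4, Foxf2, Foxk1, Foxk2, Foxm1, Foxo1 and the 4 Foxp genes. The other 15, among them all 3 Foxa genes, were not tested.

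**Figure D1:**
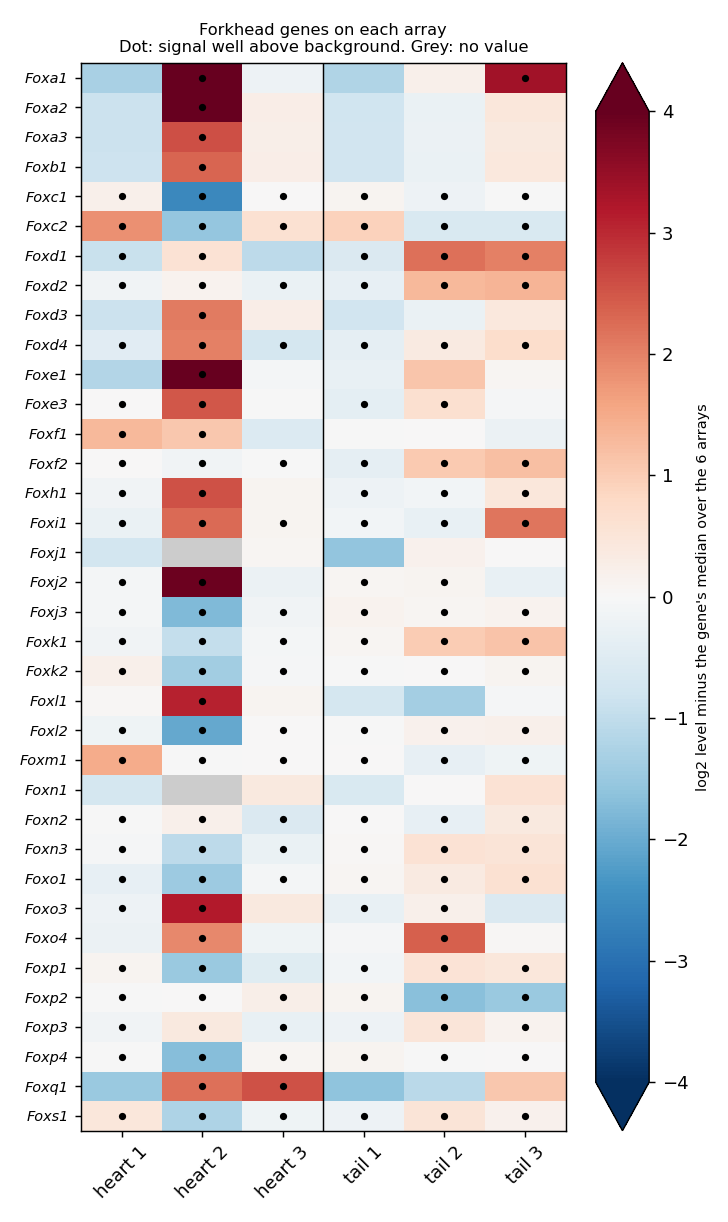
Each row is 1 forkhead gene and each column 1 array; colour is the log2 level of the gene's brightest probe minus that gene's median over the 6 arrays, a dot marks a signal well above background, and grey marks no value. Genes such as Foxa2, Foxa3, Foxb1 and Foxd3 carry a dot on heart 2 alone, and Foxd1, Foxd2, Foxf2 and Foxk1 are redder on tail 2 and tail 3 than on heart 1, heart 3 and tail 1.

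With 4 arrays, 6 of the 21 tested forkhead genes differed between heart and tail (limma, Benjamini-Hochberg adjusted p under 0.05 over all 20567 features). Foxd1, Foxd2, Foxd4, Foxf2 and Foxk1 were lower in heart, and Foxp2 was higher in heart. The 6 make up 28.6% of the tested members, where 14.4% of all features were called. Called lower in heart were 5 members against 6.63% of all features, and called higher was 1 member against 7.75%. The median log2 difference, heart minus tail, was -0.33 over the members and -0.07 over all features. At an unadjusted p under 0.05 there were 11, against 28.7% of all features. Groups did not overlap at 15 of the 21, where 62.5% of all features (36.9% lower in heart) do not overlap with this few arrays. Of the 6 called members Foxd1 passed the filter through tail alone. With a signal required on all 4 arrays 19 members were tested, and 4 were lower and 1 higher in heart, where 11.6% of all features were called.

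Split by label, limma called 0 of the 21 forkhead genes (0 at an unadjusted p under 0.05) and 0% of all 20197 features (445, or 2.2%, at an unadjusted p under 0.05). Every heart array lay below every tail array at 4 members (Foxk1, Foxo1, Foxn3 and Foxj3), as at 8.32% of all features (10.4% counting both directions). Without heart 2 alone it called 0 of the 21 (1, Foxo1, at an unadjusted p under 0.05) and 0% of 20281 features (578, or 2.85%). With all 6 arrays the median log2 difference was -0.60 over the members and -0.40 over all features, and 6 of the 21 had the opposite sign to the 4-array comparison (Foxc1, Foxd4, Foxh1, Foxi1, Foxk2 and Foxp4). When array weights were estimated from the data in the fit by label, 7 members passed, namely Foxd1, Foxd2, Foxd4, Foxk1, Foxn3, Foxc2 and Foxp2, with 11.5% of all features. At all 6 members called with 4 arrays, the left-out array labelled tail 1 lay nearer to heart 1 and 3 than to tail 2 and 3. The left-out array labelled heart 2 lay nearer to heart at 4 of them, nearer to tail at Foxd4 and midway at Foxd1. Over the 21 tested members tail 1 lay nearer to heart 1 and 3 at 17, and heart 2 at 10.

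**Figure D2:**
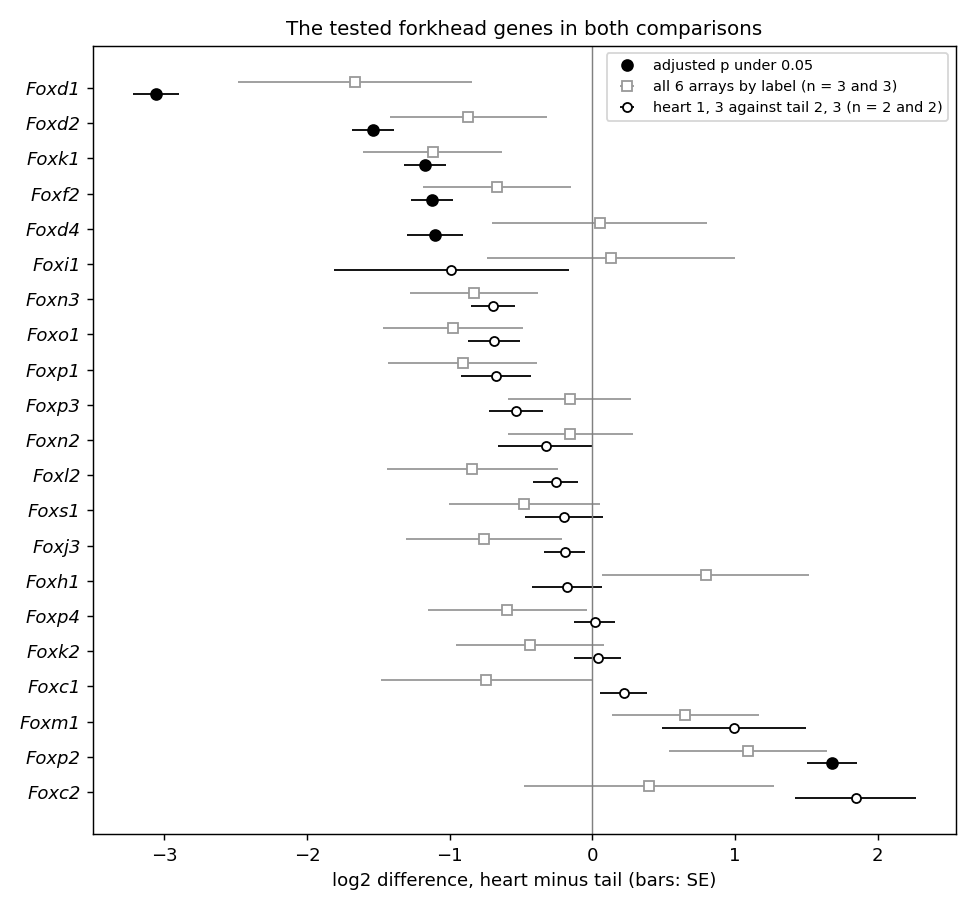
Points give the log2 difference, heart minus tail, of the 21 tested forkhead genes, with bars of 1 SE; squares use all 6 arrays by label (n = 3 and 3), circles heart 1 and 3 against tail 2 and 3 (n = 2 and 2), and filled circles have an adjusted p under 0.05. Foxd1 lies farthest to the left at -3.06, and the bars are wider by label for most genes.

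The calls also rest on each tail array. Leaving out 1 of 2 arrays leaves 1 culture in that tissue, which is then assumed to vary like the pair in the other. A gene can then enter the test through that 1 culture alone, as Foxa1, Foxo4 and Foxf1 did below. For these, entry and direction rest on the same value. Without tail 2 the 4-array comparison called 3 forkhead genes (Foxd1, with Foxi1 and Foxa1) and 8.98% of all features, and without tail 3 it called 3 (Foxd1 and Foxp2, with Foxo4) and 7.14%. Without heart 1 it called 9 members and 18.6% of all features. Without heart 3 it called 8 members, Foxf1 among them, and 14.1%. The log2 difference lay between -1.23 and -1.07 for Foxk1 and between -1.59 and -1.17 for Foxd2 over 13 alternatives each. Foxd1 was called in all 12 alternatives in which it was tested. With a signal required on all 4 arrays Foxd1 was not tested, because heart 3 was not well above background. With no filter on dim probes Foxd1 was the only member called, where 1.93% of all features were.

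Of the 5 members called higher in tail, Foxk1 has no window in the GRCm38.p6 table of promoters. For Foxd1, Foxd2, Foxd4 and Foxf2 the 250 bases before their RefSeq starts are shown from that table. Capitals mark CG pairs, of which these windows hold 12, 16, 12 and 21, beside a median of 6 over all 32851 windows of that table and of 18 over the 27 forkhead windows.
Foxd1, chr13:98353995-98354244, + strand: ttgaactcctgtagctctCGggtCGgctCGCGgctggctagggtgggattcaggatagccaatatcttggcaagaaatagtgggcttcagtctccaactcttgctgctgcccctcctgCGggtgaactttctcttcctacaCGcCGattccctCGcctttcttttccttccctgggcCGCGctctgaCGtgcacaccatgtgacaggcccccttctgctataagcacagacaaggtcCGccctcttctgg
Foxd2, chr4:114908899-114909148, - strand: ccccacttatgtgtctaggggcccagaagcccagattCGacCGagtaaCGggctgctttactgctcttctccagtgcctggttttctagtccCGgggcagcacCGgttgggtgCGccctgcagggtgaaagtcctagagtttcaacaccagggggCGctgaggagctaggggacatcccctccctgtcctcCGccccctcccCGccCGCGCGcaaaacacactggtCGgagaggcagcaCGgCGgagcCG
Foxd4, chr19:24901017-24901266, - strand: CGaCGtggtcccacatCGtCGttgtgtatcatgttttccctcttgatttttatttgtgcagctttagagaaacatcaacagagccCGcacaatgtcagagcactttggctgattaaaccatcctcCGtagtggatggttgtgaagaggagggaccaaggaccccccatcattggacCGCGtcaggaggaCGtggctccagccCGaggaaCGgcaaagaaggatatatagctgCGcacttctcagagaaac
Foxf2, chr13:31625566-31625815, + strand: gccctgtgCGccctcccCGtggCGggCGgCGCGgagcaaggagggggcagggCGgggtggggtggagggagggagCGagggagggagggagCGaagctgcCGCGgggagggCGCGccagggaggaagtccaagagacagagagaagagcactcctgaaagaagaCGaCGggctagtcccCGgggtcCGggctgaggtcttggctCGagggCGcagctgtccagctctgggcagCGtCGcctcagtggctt
Neither core of the usual forkhead site (TGTTTAC or TGTTTGC, searched on both strands) lies in any of the 4 windows. Over all windows 3.17% hold the first, 4.30% the second, and 7.29% hold at least 1 of the pair. The same search found 3 windows among the 27 belonging to 22 of the 36 members, at Foxa1, Foxj3 and Foxp1. The core GACCACCCA, bound by the Gli factors of Hedgehog signalling, was found in 0.225% of all windows and in 0 of the 27. A missing match says only that these letters are not in the window.

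Foxd1, a marker of stromal progenitors in the embryonic kidney and other organs, showed the largest difference of the 21 tested members on 4 arrays. It stood at -4.43, -2.98 and -4.59 on heart 1, 2 and 3 and at -4.11, -1.36 and -1.54 on tail 1, 2 and 3. Tail 2 and 3 were high, heart 1, heart 3 and tail 1 were low, and heart 2 lay between. With 4 arrays the means were -4.51 ± 0.11 in heart and -1.45 ± 0.13 in tail (SD, n = 2 each), a log2 difference of -3.06 (SE 0.16, limma adjusted p = 0.00146). Of those 2 heart arrays, 1 had a signal well above background. Foxd1 thus passed the filter through tail alone, so its entry and its direction rest on the same values. Heart 3 lay under the lowest level that counted as such there (-3.95), and with heart 3 set to that level Foxd1 was at least 6.67-fold higher in tail. By label the difference was -1.66 (SE 0.82, adjusted p = 0.714), and the groups overlapped. Without heart 2 alone it was -2.17 (SE 0.90, adjusted p = 0.697), with no overlap between groups, as at 19.4% of all features.

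Foxd2, its paralogue, expressed in mesenchyme of kidney and face, was likewise higher on tail 2 and 3 than on every other array. It stood at -1.38, -1.08 and -1.49 on heart 1, 2 and 3 and at -1.55, 0.08 and 0.12 on tail 1, 2 and 3. All 3 heart arrays and tail 1 were low and tail 2 and 3 were high. Foxd2 was 2.9-fold higher in tail on 4 arrays (log2 difference -1.54, SE 0.15, limma adjusted p = 0.00562), and differed by -0.87 (SE 0.55, adjusted p = 0.714) by label. It no longer passed when tail 2 (adjusted p = 0.0552) or tail 3 (0.0583) was left out, or with no filter (0.0738).

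Foxd4 had the smallest difference among the called members of the Foxd group. It stood at -3.08, -0.60 and -3.32 on heart 1, 2 and 3 and at -2.97, -2.26 and -1.92 on tail 1, 2 and 3. Heart 2 was the highest of the 6 arrays, heart 1 and 3 the lowest. On 4 arrays Foxd4 was 2.15-fold higher in tail (log2 difference -1.11, SE 0.20, limma adjusted p = 0.0302). By label the sign turned (0.05, SE 0.75, adjusted p = 0.976), and the call was lost without heart 3 (adjusted p = 0.0808), tail 2 (0.105) or tail 3 (0.23), with normexp background correction (0.0617) and with no filter (0.191). Foxd4 belongs to a group of closely related genes, and its probe was not checked for binding to other transcripts. Foxd3, a factor of neural crest and pluripotent cells, was well above background on heart 2 alone (-4.31) and lay between -7.24 and -5.96 elsewhere.

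Foxf2, a mesenchymal factor known from gut, palate and brain pericytes, was higher in tail. It stood at -2.07, -2.20 and -2.09 on heart 1, 2 and 3 and at -2.45, -1.03 and -0.87 on tail 1, 2 and 3. The 3 heart arrays lay between -2.20 and -2.07, tail 1 was the lowest of all 6 and tail 2 and 3 the highest. With 4 arrays the means were -2.08 ± 0.02 in heart and -0.95 ± 0.11 in tail (SD, n = 2 each), so Foxf2 was 2.18-fold higher in tail (log2 difference -1.12, SE 0.15, limma adjusted p = 0.0135). By label the difference was -0.67 (SE 0.52, adjusted p = 0.714). Leaving out tail 2 (adjusted p = 0.109) or tail 3 (0.16) ended the call, as did no filter (0.131). Its paralogue Foxf1, needed for lung and visceral mesoderm, was not tested with 4 arrays. It entered the test when heart 3 was left out and heart 1 alone stood for heart. Its entry and its direction there rest on the same value of 1 culture. Foxf1 was well above background on heart 1 (-3.80) and heart 2 (-4.04) and lay between -5.66 and -5.10 on the other arrays, which were not well above background.

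**Figure D3:**
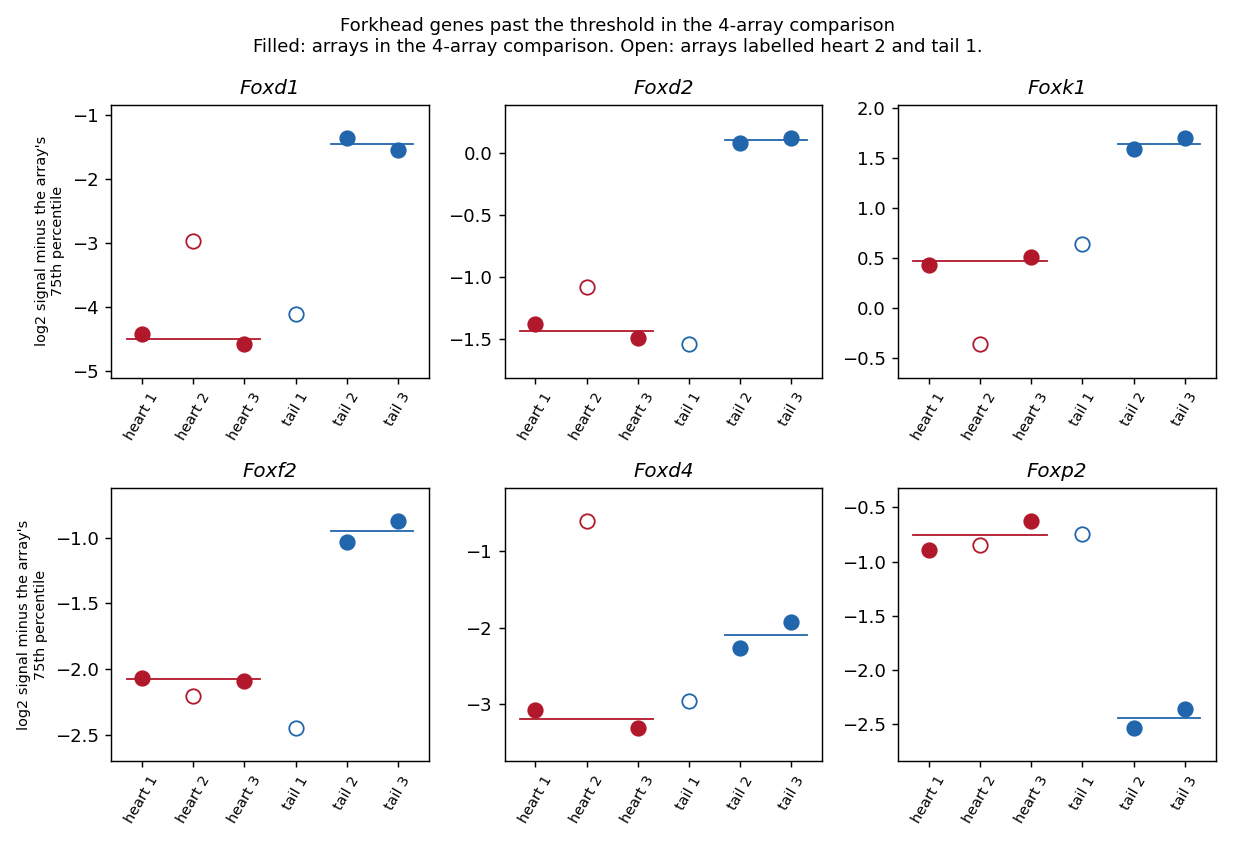
One panel per forkhead gene called with 4 arrays; the vertical axis is the log2 signal minus the array's 75th percentile, red is heart, blue is tail, open circles are the arrays labelled heart 2 and tail 1, and lines mark the means of heart 1 and 3 and of tail 2 and 3. Foxd1, Foxd2, Foxk1, Foxf2 and Foxd4 have both filled tail points above both filled heart points, Foxp2 has them below, and the open tail 1 point lies near the heart line in each panel.

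Genes of the Foxf and Foxc groups sit side by side on the chromosome. By RefSeq gene order Foxq1, Foxf2 and Foxc1 are consecutive coding genes on chromosome 13, and Foxc2 and Foxl1 are consecutive on chromosome 8, with Mthfsd between Foxf1 and Foxc2. On 4 arrays Foxf2 was lower in heart, the next gene Foxc1 did not pass (0.22, SE 0.17, adjusted p = 0.439), and Foxq1 was not tested. Whether Foxf2 and Foxc1 differ from each other in this response was not tested.

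Foxf1, Foxf2 and Foxl1 are known to respond to Hedgehog signalling in mesenchyme, so the pathway was set beside them. Of 13 Hedgehog genes followed here 11 were tested with 4 arrays, and 4 were lower and 0 higher in heart. Over all features 6.63% were called lower and 7.75% higher. Hhip and Gli1 were well above background on neither heart 1 nor heart 3, and Ptch1 on heart 1 alone. They passed the filter through tail alone, so their entry and their direction rest on the same values. The median log2 difference of the 11 was -0.45 (-0.07 over all features). By label limma called 0 of 9 tested (0 at an unadjusted p under 0.05), and Hhip and Ptch1 were not among the 9. With 4 arrays 2 passed without tail 2, 2 without tail 3, 2 with no filter and 1 with a signal required on all 4 arrays.

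Hhip, the ligand-binding inhibitor that the pathway itself induces, stood at -7.00, -1.05 and -5.89 on heart 1, 2 and 3 and at -6.94, 0.25 and -0.25 on tail 1, 2 and 3. Tail 2 and 3 were high and heart 1, heart 3 and tail 1 were not well above background. Hhip was at least 22.4-fold higher in tail on 4 arrays (limma adjusted p = 0.0023); such a bound sets the brighter group against, on each dim array, the higher of the probe's own level and the lowest level that counted as well above background. Gli1, a transcription factor and direct pathway target, stood at -4.79, 0.75 and -4.43 on heart 1, 2 and 3 and at -4.31, -2.25 and -2.30 on tail 1, 2 and 3. Heart 2 was the highest of all 6, and tail 2 and 3 were above heart 1, heart 3 and tail 1. Gli1 was at least 4.26-fold higher in tail on 4 arrays (adjusted p = 0.00344), and by label its sign turned (0.13, SE 1.41).

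The receptor gene Ptch1 had a log2 difference of -2.48 (SE 0.53, limma adjusted p = 0.0493) with 1 heart array of 2 well above background. With heart 3 set to the lowest level that counted as such there, Ptch1 was at least 3.26-fold higher in tail. Its levels were -3.98 and -5.50 on heart 1 and 3 and -4.66, -2.14 and -2.38 on tail 1, 2 and 3, with no usable spot on heart 2. Its call was lost without tail 2 (0.146) or tail 3 (0.0972), under quantile normalization (0.0749), with no filter (0.218) and with the dimmest probe (0.0516). Gli2 had -1.26 (SE 0.16, adjusted p = 0.0127), and did not pass without tail 2 (0.124), without tail 3 (0.0826), with no filter (0.119) or by label (-0.26, adjusted p = 0.837). The signal transducer Smo (-0.45, adjusted p = 0.169) and Gli3 (-0.08, adjusted p = 0.784) did not pass. Of the 11 tested Hedgehog genes 9 had a negative and 2 a positive difference. The positive ones were Dhh (0.83, adjusted p = 0.0792) and Gas1 (0.15, adjusted p = 0.832), which did not pass. Foxf1 and Foxl1 were not tested with 4 arrays. Whether Hedgehog signalling has a part in the Foxf2 values was not tested.

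**Figure D4:**
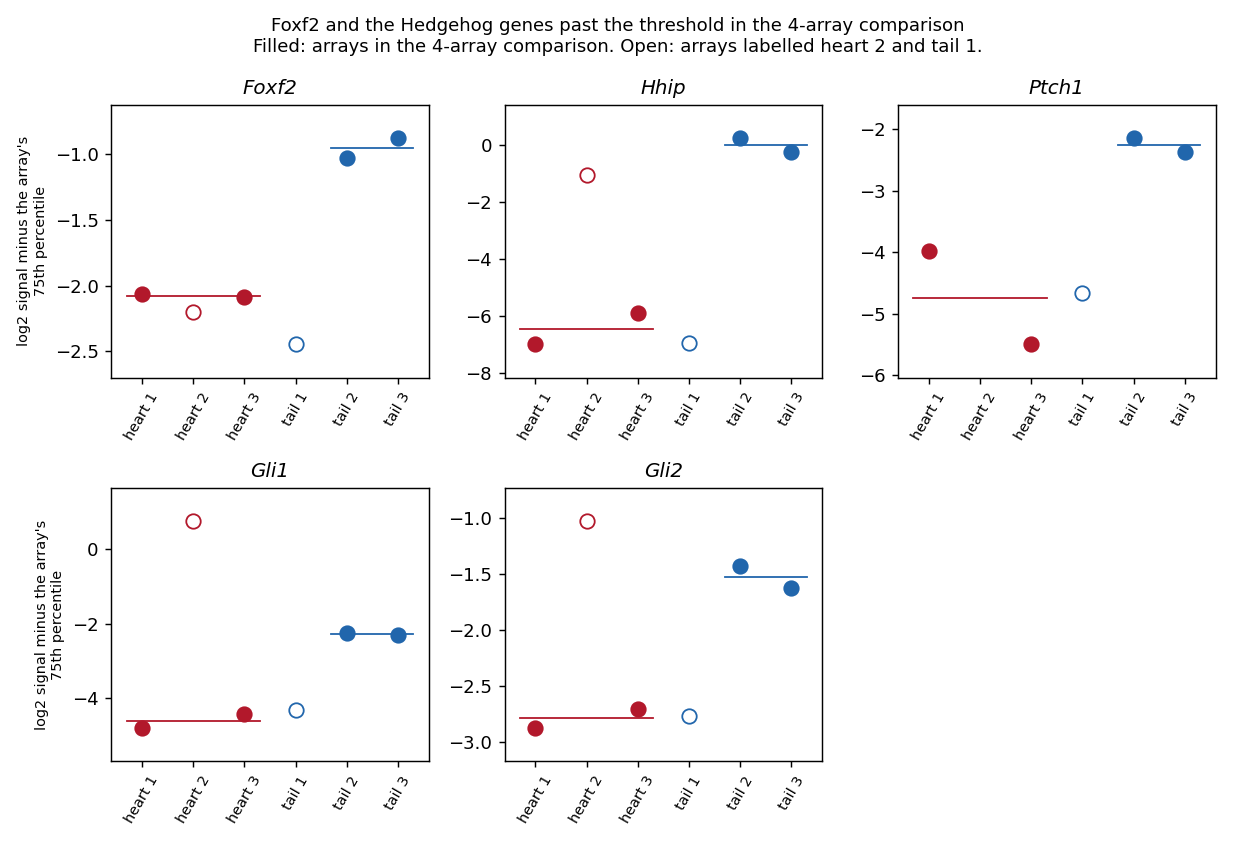
Foxf2 and the 4 Hedgehog genes called with 4 arrays, drawn as log2 signal minus the array's 75th percentile on each array, with heart in red, tail in blue, heart 2 and tail 1 as open circles and group means of the 4 arrays as lines; Ptch1 has no value on heart 2. Foxf2, Hhip, Ptch1, Gli1 and Gli2 are higher on tail 2 and 3 than on heart 1 and 3, and heart 2 lies highest for Gli1 and Gli2.

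Foxc1 and Foxc2 are needed for heart, vessel, eye and axial skeleton development. Foxc1 stood at 2.10, -0.67 and 1.92 on heart 1, 2 and 3 and at 2.00, 1.70 and 1.89 on tail 1, 2 and 3. The 5 arrays other than heart 2 lay between 1.70 and 2.10, with tail 2 the lowest of them. Foxc2 stood at 2.25, -1.14 and 1.04 on heart 1, 2 and 3 and at 1.35, -0.21 and -0.20 on tail 1, 2 and 3. Heart 1 was the highest, heart 3 and tail 1 came next, tail 2 and 3 were lower and heart 2 was the lowest.

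On 4 arrays Foxc2 averaged 1.64 ± 0.86 in heart and -0.20 ± 0.00 in tail (SD, n = 2 each), a log2 difference of 1.85 (SE 0.43) that did not pass (limma adjusted p = 0.0596). Foxc2 is singled out after its values were seen. It passed in 5 of 13 alternatives, with a block for slide row (adjusted p = 0.0127), with median scaling (0.0343), with normexp (0.0483) and without heart 1 (0.019) or heart 3 (0.0153), and the range over all of them was 0.0127 to 0.253. By label the difference was 0.40 (SE 0.88, adjusted p = 0.82).

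Foxc2 is also known from lymphatic and other endothelial cells. On 4 arrays 9 of 11 endothelial markers were higher in heart and 0 lower (0 by label, with 2 at an unadjusted p under 0.05). Over all features 7.75% were called higher. Cldn5, Robo4, Tie1 and Emcn were well above background on neither tail 2 nor tail 3, so they passed the filter through heart alone. The mean log2 level of the 11 was -0.34 and 0.01 on heart 1 and 3 and -2.38 and -2.44 on tail 2 and 3. The left-out arrays had -1.08 (heart 2) and -0.18 (tail 1). All 11 were well above background on heart 1 and 3, and 7 on tail 2 and on tail 3. Their part in the forkhead values was not tested. In bulk RNA, fewer cells of a type and less RNA per cell cannot be told apart.

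Foxp2 was the only forkhead gene called higher in heart. It encodes a repressor best known from brain, and from lung and heart development together with Foxp1 and Foxp4. Its brighter probe stood at -0.89, -0.84 and -0.63 on heart 1, 2 and 3 and at -0.75, -2.53 and -2.35 on tail 1, 2 and 3. The 3 heart arrays and tail 1 lay close together, and tail 2 and 3 were lower. With 4 arrays it was 3.21-fold higher in heart (log2 difference 1.68, SE 0.18, limma adjusted p = 0.00714). By label it differed by 1.09 (SE 0.55, adjusted p = 0.714).

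The dimmer Foxp2 probe stood at -2.44, -1.34 and -2.40 on heart 1, 2 and 3 and at -2.67, -4.30 and -2.87 on tail 1, 2 and 3. It was also lower on tail 2 and 3, not well above background on tail 2, and its difference of 1.16 did not pass (adjusted p = 0.223). The call on the brighter probe was lost without tail 2 (adjusted p = 0.0588) and with no filter (0.0777). Among the 433 probes of the authors' deposited table, 1 belongs to a forkhead gene, and it is this brighter Foxp2 probe. The authors' deposited table gives it a log2 fold change of 1.58, heart over tail, or 3.00-fold.

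Foxp1, a broadly expressed repressor needed for heart valve and muscle development, pointed the other way without passing. Its brightest probe stood at 4.41, 2.81 and 3.82 on heart 1, 2 and 3 and at 4.19, 4.83 and 4.75 on tail 1, 2 and 3, a difference of -0.68 on 4 arrays (SE 0.24, limma adjusted p = 0.16), and it passed without heart 1 (0.0304). The other 2 probes of Foxp1 differed by -0.65 and -1.05, the latter with heart 3 not well above background. Foxp4 had 3 probes with differences of 0.02, 0.01 and 0.18, and its brightest probe lay between 3.28 and 3.42 on the 5 arrays other than heart 2 (adjusted p = 0.95 on 4 arrays).

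Foxp3, the defining factor of regulatory T cells, stood at -2.76, -2.21 and -2.92 on heart 1, 2 and 3 and at -2.81, -2.13 and -2.47 on tail 1, 2 and 3. It was well above background on all 6 arrays, tail 2 and 3 and heart 2 being highest, and it did not pass (-0.54, SE 0.19, adjusted p = 0.153). Of 7 T cell markers 3 were well above background on each array but heart 2, where all 7 were. With 4 arrays limma called 0 of the 3 tested (0 at an unadjusted p under 0.05).

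Foxk1 and Foxk2 are paired repressors that respond to nutrient and insulin signals and, for Foxk1, mark muscle progenitors. Foxk1 stood at 0.43, -0.36 and 0.51 on heart 1, 2 and 3 and at 0.64, 1.59 and 1.70 on tail 1, 2 and 3. Every heart array was below every tail array, with tail 1 next to the hearts. With 4 arrays Foxk1 was 2.26-fold higher in tail (log2 difference -1.17, SE 0.15, limma adjusted p = 0.0116), and by label it differed by -1.12 (SE 0.49, adjusted p = 0.714). Foxk1 did not pass without tail 2 (adjusted p = 0.103), without tail 3 (0.137) or with no filter (0.119). Foxk2 lay between 2.35 and 2.59 on the 5 arrays other than heart 2 and did not pass (0.04, SE 0.17, adjusted p = 0.901); the difference between the paralogues was not tested.

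Among the Foxo genes, which couple growth factor signalling to cell cycle arrest, stress resistance and metabolism, Foxo1 could be tested. It stood at 1.78, 0.65 and 2.02 on heart 1, 2 and 3 and at 2.21, 2.47 and 2.71 on tail 1, 2 and 3. Every heart array lay below every tail array, and tail 1 was the lowest tail. The difference on 4 arrays was -0.69 (SE 0.18) and did not pass (limma adjusted p = 0.0801, 0.0707 to 0.498 over 13 alternatives). A lower-signal probe gave -0.55, the same sign. Foxo3 and Foxo4 were not tested. Foxo3 was well above background on heart 1 (-4.23), heart 2 (-0.85), tail 1 (-4.33) and tail 2 (-3.83) only.

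Of 20 listed FOXO target genes 19 were tested with 4 arrays. Klf2, a shear-responsive and quiescence factor, was 2.9-fold higher in tail (log2 difference -1.53, SE 0.15, limma adjusted p = 0.00563), and the other 18 did not pass. That is 5.26% of the tested list, where 14.4% of all features were called, and the list's median was -0.16. Klf2 stood at 1.84, 0.72 and 1.81 on heart 1, 2 and 3 and at 1.79, 3.42 and 3.30 on tail 1, 2 and 3, and its call was lost without tail 2 (adjusted p = 0.0621) and with no filter (0.0738). The count for the list was 4 with median scaling, where 14.6% of all features were called, and 4 with normexp (15.4%). It was 3 with the slide row as a block (14.2%), and 0 by label (2 at an unadjusted p under 0.05).

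Foxm1, which switches on the genes of G2 and mitosis and is high in dividing cells, set 1 culture apart rather than the tissues. Its brighter probe stood at 2.42, 0.93 and 0.97 on heart 1, 2 and 3 and at 0.97, 0.63 and 0.77 on tail 1, 2 and 3. Heart 1 was the highest by far and the other 5 arrays lay between 0.63 and 0.97. The dimmer probe stood at -1.39, -2.62 and -3.13 on heart 1, 2 and 3 and at -3.26, -2.96 and -2.96 on tail 1, 2 and 3, with heart 1 again highest. Against the mean of heart 3, tail 1, tail 2 and tail 3, heart 1 was higher by 1.59 on the first probe and 1.68 on the second. On 4 arrays the log2 difference between tissues was 1.00 (SE 0.50, limma adjusted p = 0.273). It passed without heart 3 (1.72, adjusted p = 0.0256), when heart 1 alone stood for heart.

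The G2 and M list shared the peak on heart 1 with Foxm1, while on heart 2 the list had its lowest mean level (1.63, against 1.95 to 3.56 elsewhere). At all 13 tested genes, among them the kinase genes Plk1, Aurka, Aurkb and Cdk1 and the cyclin genes Ccnb1 and Ccnb2, heart 1 was the highest of the 6 arrays, as it was at 21.2% of all features. Heart 1 exceeded the mean of heart 3 and the 3 tails by 0.83 to 2.14, with a median of 1.47 (-0.04 over all features). Plk1, for example, stood at 6.15, 3.49 and 4.61 on heart 1, 2 and 3 and at 4.59, 4.24 and 4.34 on tail 1, 2 and 3. Between tissues limma called 0 of the 13 with 4 arrays (0 at an unadjusted p under 0.05), where 14.4% of all features were called, and 0 by label.

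**Figure D5:**
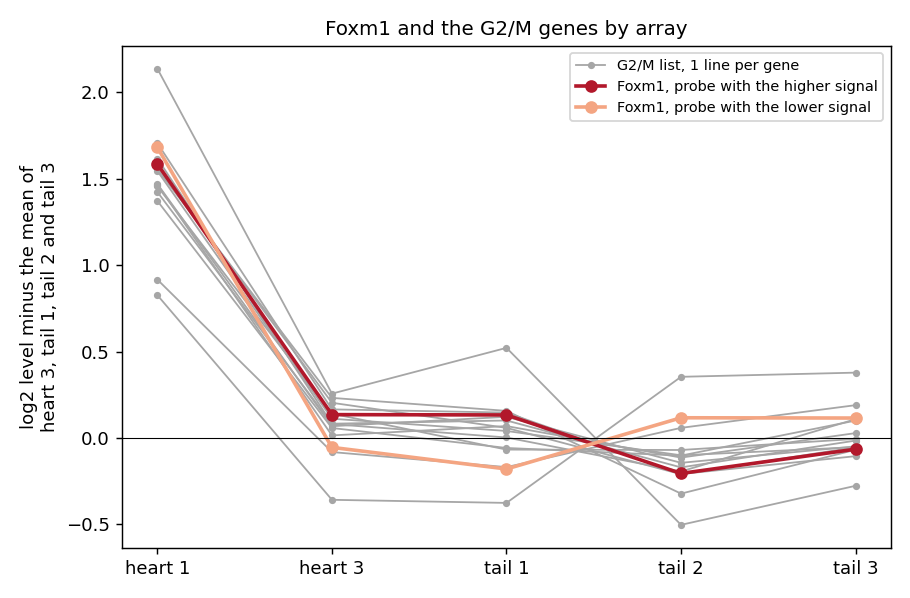
Lines join the log2 level of each gene on 5 arrays (without heart 2), drawn relative to the mean of heart 3, tail 1, tail 2 and tail 3; grey lines are the 13 G2/M genes and coloured lines both Foxm1 probes. All lines are highest on heart 1, where the grey ones lie from 0.83 to 2.14 and the Foxm1 probes at 1.59 and 1.68.

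The remaining tested members did not pass with 4 arrays. Foxn3, a checkpoint repressor, stood at 1.05, 0.05 and 0.84 on heart 1, 2 and 3 and at 1.15, 1.67 and 1.62 on tail 1, 2 and 3, every heart array below every tail array, with a difference of -0.70 (SE 0.16, limma adjusted p = 0.0556); it passed without heart 1 (0.0403) and with normexp (0.0355). Foxn2, a related repressor, lay between -1.05 and -0.09 and differed by -0.33 (adjusted p = 0.562) and Foxj3 by -0.19 (adjusted p = 0.429). Foxh1, a partner of Smad proteins in early embryos, differed by -0.18 (adjusted p = 0.674).

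Foxs1, known from pericytes and neural crest derivatives, stood at 2.19, 0.52 and 1.56 on heart 1, 2 and 3 and at 1.55, 2.24 and 1.91 on tail 1, 2 and 3. Its groups overlapped, and the difference was -0.20 (SE 0.27, adjusted p = 0.668). Pericyte and smooth muscle markers went both ways, 4 of 8 lower and 1 higher in heart with 4 arrays, and 0 by label (0 at an unadjusted p under 0.05). Over all features 6.63% were called lower and 7.75% higher with 4 arrays. Of the 4 lower ones Myh11 was well above background on 1 heart array of 2, so it passed the filter through tail alone. Foxl2, the ovarian granulosa factor, had a probe at 6.04, 4.18 and 6.25 on heart 1, 2 and 3 and at 6.19, 6.38 and 6.42 on tail 1, 2 and 3 (difference -0.26, adjusted p = 0.344) and another at -2.96, -2.95 and -2.07 on heart 1, 2 and 3 and at -2.78, -2.42 and -2.62 on tail 1, 2 and 3. Both were well above background on every array, and the second differed by 0.01.

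Foxi1, a factor of ion-transporting epithelia, was high on 1 tail array. It stood at -3.07, -0.55 and -2.69 on heart 1, 2 and 3 and at -2.92, -3.10 and -0.68 on tail 1, 2 and 3. Tail 3 and heart 2 were high and the other 4 arrays lay between -3.10 and -2.69. The difference on 4 arrays was -0.99 (SE 0.82, limma adjusted p = 0.477), and it passed without tail 2 (-2.20, adjusted p = 0.0276), when tail 3 alone stood for tail. Foxa1, an endodermal and epithelial pioneer factor, was likewise well above background on tail 3 (-2.70) and heart 2 (-1.57) and lay between -7.36 and -5.89 on the others. Foxq1, known from hair and epithelia, was well above background on heart 3 (-2.73) and heart 2 (-3.07) and lay between -6.90 and -4.19 on the others.

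Of the 15 untested members, 8 were not well above background on any array apart from heart 2. They were Foxa2, Foxa3, Foxb1, Foxd3, Foxe1, Foxj1, Foxl1 and Foxn1, genes known mainly from endoderm, brain, thyroid, ciliated cells, gut mesenchyme and thymus. Foxj1, the master regulator of motile cilia, lay between -6.39 and -4.66 and had no usable spot on heart 2, like Foxn1. Of 16 motile cilia genes on the array 8 were tested with 4 arrays, and 5 were lower and 0 higher in heart. Over all features 6.63% were called lower and 7.75% higher. Rfx3, with the largest difference of the 8, was well above background on 1 heart array of 2, so it passed the filter through tail alone. By label limma called 0 of the motile cilia genes (1 at an unadjusted p under 0.05). Foxe3, Foxj2, Foxo3 and 1 of the 2 Foxo4 probes were well above background on the 4 arrays of the first slide row (heart 1, heart 2, tail 1, tail 2) and on neither array of the second (heart 3, tail 3). The lowest level that counted as well above background was -5.03, -4.96 and -4.42 on heart 1, tail 1 and tail 2, and -3.95 and -3.79 on heart 3 and tail 3. No difference between tissues can be read from these members.

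Marker lists of other cells differed in direction in the 4-array comparison. Over all features 7.75% were called higher and 6.63% lower in heart. Leukocyte and macrophage markers were higher in heart at 6 of 10 and lower at 0 (0 by label, 0 at an unadjusted p under 0.05). Their mean levels were 2.01 and 2.81 on heart 1 and 3 and 0.52 and -0.03 on tail 2 and 3. The left-out arrays had 0.17 (heart 2) and 2.54 (tail 1). Of 6 mesothelial markers 4 were tested, with 2 higher (Wt1 and Msln) and 1 lower (Krt19) in heart. Of 7 keratinocyte and hair follicle markers 4 were tested, with 1 (Dsp) lower in heart. Of 6 cardiomyocyte markers 4 were tested, with 1 higher (Tnnt2) and 1 lower (Actc1) in heart. Wt1 and Msln were well above background on neither tail 2 nor tail 3. Dsp and Actc1 were so on neither heart 1 nor heart 3, and Krt19 on 1 of these 2. All of these but Tnnt2 passed the filter through their brighter group alone, so entry and direction rest on the same values. By label limma called 0 of the 3 or 4 tested in the mesothelial, keratinocyte and cardiomyocyte lists (1 mesothelial gene at an unadjusted p under 0.05). Their part in the forkhead values was not tested.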

How the data were processed

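RNA of 6 cultures was measured on 1-colour (Cy3) Agilent arrays, all on 1 slide. Spot intensities were deposited as made, per the file headers, by Agilent Feature Extraction 11.0.1.1, background-subtracted and corrected for trends within the array, with no scaling between arrays. Median spot and local background intensities and 0 or 1 flags of other kinds (outlier, saturated, well above background) were used as deposited. A table of 433 probes deposited by the authors holds log2 and linear fold ratios, heart over tail; the sources used here do not say how they were normalized and chosen. No spot was saturated.

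Outlier spots were left out, log2 spots of a probe averaged, and the 75th percentile of an array's 55681 non-control probes subtracted. Probes were named through RefSeq accessions (27235 probes), and 27 more by the deposited table. The array's design is on mm9, and the promoter windows are on GRCm38.p6. A probe counted as well above background when at least 0.5 of its spots were. Probes passing on all arrays of at least 1 group were kept, the brightest probe stood for a gene, and limma 3.58.1 (lmFit, eBayes, two-sided, Benjamini-Hochberg) in R 4.3.3 compared the groups; Python 3.11.15, pandas 2.3.3 and matplotlib 3.10.9 did the rest. The fit was also run on simulated arrays. Their spread was drawn from the 4-array fit, so they cannot show how the fit by label behaves with heart 2 and tail 1. The number of arrays limits the precision.

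One item of the Hedgehog list is not reported here, and the list's counts leave it out. Members, lists, tests and the choice of 4 arrays were made with earlier results of these data known. Named in full were called members and members with several probes, and called genes of the lists; others are marked in the text. Alternatives were other normalizations (quantile, median, cyclic loess, normexp on median signals with offset 50), filters, probe rules, blocks, array weights and leaving out arrays.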

Additional observations from a re-analysis of the deposited data

How the results depend on the processing

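By label, the 0 called features became 44 with the replicate number as a block (0 of the members), 2329 with array weights (7 members) and 2957 without the arrays labelled heart 2 and tail 1 (6 members). Leaving out 1 array gave 0 to 214 features, the latter without heart 1, and 0 members. Whether equal numbers pair the cultures is not stated. Deviations of same-numbered arrays from their group means correlated at 0.195, 0.259 and -0.33, and 2 of the 6 arrays correlated best with their own number. The group means include heart 2 and tail 1, which stand apart, so these values cannot decide whether cultures were paired. For the 4 arrays no paired analysis was possible because the groups share 1 number. With them, no filter on dim probes gave 716 features and 1 member. Leaving out 1 array gave 1569 to 3951 features and 3 to 9 members. The Foxd4 difference, 0.05 by label, was -1.09 with array weights and -1.11 without heart 2 and tail 1, and that of Gli1 was -2.19 and -2.33; the cause was not tested. All 6 called members kept their sign in the alternatives of the 4-array comparison. By label the median over all features moved from -0.40 to -0.29 with quantile, -1.33 with median and -0.01 with loess scaling.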
